A study of Mus musculus with 9 samples.

Results

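Type I interferon response genes were described in mouse CD8+ T cells that recognise OVA, a model antigen, at day 9 after infection with Listeria monocytogenes. The 34 genes were taken from a fixed list of genes induced by interferon, and each was read from the brightest of its single-gene probe sets, by the mean of the 9 arrays. Such a probe set was named for 30 of the 34 genes, out of 17097 genes measured, and Isg15, Oas1a, Bst2 and Ifi44 were not analysed here. The cells had been sorted by flow cytometry from the spleen of C57BL/6 mice, all of them carrying floxed Tsc1 alleles (Tsc1-fl/fl). The 4 WT samples came from mice without cre, and the 5 Tsc1-/- samples from mice in which cre was driven by Granzyme B, a gene switched on when T cells become effectors. Cre was present in the Tsc1-/- mice alone, so its own effect and the loss of Tsc1 cannot be told apart. The sources used here give neither age nor sex of the mice. The labels do not say whether each sample came from a separate animal, so p-values measure only the spread between these samples.

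Type I interferons (interferon alpha and beta) are secreted when cells sense viral or bacterial nucleic acids. They bind the receptor pair Ifnar1 and Ifnar2, whose kinases Jak1 and Tyk2 activate Stat2, which acts with Irf9 in a complex that binds the interferon-stimulated response element in the promoters of its target genes. The targets include sensors of foreign nucleic acid, enzymes that block viral replication, and regulators that extend or end the response. In T cells responding to infection, early interferon supports clonal expansion, and many of the same genes also respond to interferon gamma, which effector CD8+ T cells make themselves. The product of Tsc1 acts with Tsc2 as a brake on the kinase mTORC1.

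The targeted gene was measured first. Tsc1 read 7.77, 7.61, 7.71 and 7.56 on the log2 scale in WT replicates 1 to 4, and 7.43, 7.27, 7.51, 7.44 and 7.35 in Tsc1-/- replicates 1 to 5. The genotypes did not overlap, with Tsc1-/- lower (exact two-sided permutation p = 0.00794, the smallest that 4 against 5 samples can give), at 83.3% of the WT level and an adjusted p of 0.114 in limma. The other Tsc1 probe sets, both dimmer, differed by -0.32 and -0.01. Whether any of these probe sets lies in the deleted part is not known here, so it checks the labels only in part. The defining genes of the sorted cells were bright and alike, with Cd8a at 12.08 in WT and 12.10 in Tsc1-/- and Cd3e at 11.81 and 11.82, while Cd4 read 6.53 and 6.54. Arrays correlated at 0.988 to 0.993 within and 0.983 to 0.991 between genotypes over all genes.

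The regulatory sequence that defines this response was looked for in the promoters, taken as RefSeq windows (GRCm38.p6) from 250 bases before to 50 bases after each start site. The core of the interferon-stimulated response element, searched on either strand as GAAA followed by any 2 bases and a second GAAA, occurred in 14 of the 25 listed genes with a window in the table (56.0%). The share was 3.99% of all 27025 genes in the table and 3.44% of all 32851 windows. A match is a description of the letters, not a binding site. The windows of Stat2, Ifit1, Rsad2 and Gbp2 are shown. These are the first 4, in list order, of the members with this core whose values in every array follow. They belong to a factor of the pathway, 2 antiviral effectors and a GTPase. The windows lie at chr10:128270248-128270547 (plus strand), chr19:34640639-34640938 (plus), chr12:26456403-26456702 (minus) and chr3:142620413-142620712 (plus). They are written 5′ to 3′ along the gene with each match to this core, here always as its reverse complement, in capitals.
Stat2: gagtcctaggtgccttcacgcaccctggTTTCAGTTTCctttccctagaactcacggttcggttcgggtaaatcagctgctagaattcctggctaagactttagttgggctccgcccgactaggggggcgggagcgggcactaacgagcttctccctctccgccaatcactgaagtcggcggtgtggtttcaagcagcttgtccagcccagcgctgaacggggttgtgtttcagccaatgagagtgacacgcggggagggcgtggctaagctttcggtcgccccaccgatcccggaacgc
Ifit1: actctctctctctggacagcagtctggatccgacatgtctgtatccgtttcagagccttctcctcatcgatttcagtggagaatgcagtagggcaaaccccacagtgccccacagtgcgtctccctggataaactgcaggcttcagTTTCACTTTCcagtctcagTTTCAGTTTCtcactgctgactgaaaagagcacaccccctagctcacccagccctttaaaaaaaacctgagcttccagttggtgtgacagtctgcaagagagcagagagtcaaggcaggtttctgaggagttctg
Rsad2: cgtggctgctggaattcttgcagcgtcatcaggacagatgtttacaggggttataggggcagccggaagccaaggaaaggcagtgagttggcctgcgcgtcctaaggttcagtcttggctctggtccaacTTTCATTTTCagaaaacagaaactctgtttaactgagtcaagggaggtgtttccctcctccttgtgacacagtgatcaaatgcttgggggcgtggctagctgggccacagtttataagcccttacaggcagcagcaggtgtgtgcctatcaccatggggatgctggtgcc
Gbp2: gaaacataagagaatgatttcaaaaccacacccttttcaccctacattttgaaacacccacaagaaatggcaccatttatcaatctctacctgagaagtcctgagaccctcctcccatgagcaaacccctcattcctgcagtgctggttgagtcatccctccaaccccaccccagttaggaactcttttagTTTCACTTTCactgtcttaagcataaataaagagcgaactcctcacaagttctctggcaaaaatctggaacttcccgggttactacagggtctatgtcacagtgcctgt
The match began 222 bases before the start site in Stat2, 104 and 85 bases before it in Ifit1, 120 in Rsad2 and 59 in Gbp2. The 2 matches in Ifit1 did not overlap.

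The comparison of the genotypes asks whether the interferon programme of effector CD8+ T cells at day 9 differed without Tsc1. No interferon-induced gene on the list was called higher or lower in Tsc1-/- cells (0 of 30 at an adjusted p under 0.05 in limma, adjusted over all 17097 genes). Among all genes 1.28% were called, 0.971% higher and 0.31% lower, so a list of this size would hold few calls at the background rate. The members split evenly, 15 with a positive and 15 with a negative difference, and their median difference was 0.011 on the log2 scale against -0.0063 over all genes. Single differences ran from -0.24 (Oas2) to 0.25 (Gbp2), or 84.5% to 119% of the WT level. At an unadjusted p under 0.05 there were 6 members, namely Zbp1, Mx1, Oas2, Ifi47, Gbp2 and Gbp3, or 20% of the 30, against 17.2% of all genes.

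The 95% intervals of the differences come from the comparison of genotypes without a marker covariate. For all 30 members the interval lay inside a 1.5-fold change in either direction, as it did for 92.1% of all genes. Its lowest bound was -0.53 (Rsad2) and its highest 0.52 (Usp18), which correspond to 69.3% and 143% of WT. None of the 30 differed by more than 0.3 on the log2 scale, against 8.91% of all genes. With the macrophage marker mean as a covariate, standard errors grew, as for Ifi27l2a (0.14 to 0.20) and Gbp2 (0.11 to 0.18). Intervals from that fit are not given here. The Usp18 estimate itself then lay outside 1.5-fold, so the range does not hold with the covariate. Other settings also passed 0.3. With the mean of all probe sets of a gene, Gbp2 differed by 0.34 (SE 0.14). Without WT replicate 4 and Tsc1-/- replicate 1 together, the most negative member difference was -0.35. The ranges above therefore hold for the main fit, with 1 probe set per gene and all arrays. The intervals given are for 1 gene at a time and hold on the RMA scale, which can compress changes, above all of dim genes.

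**Figure D1:**
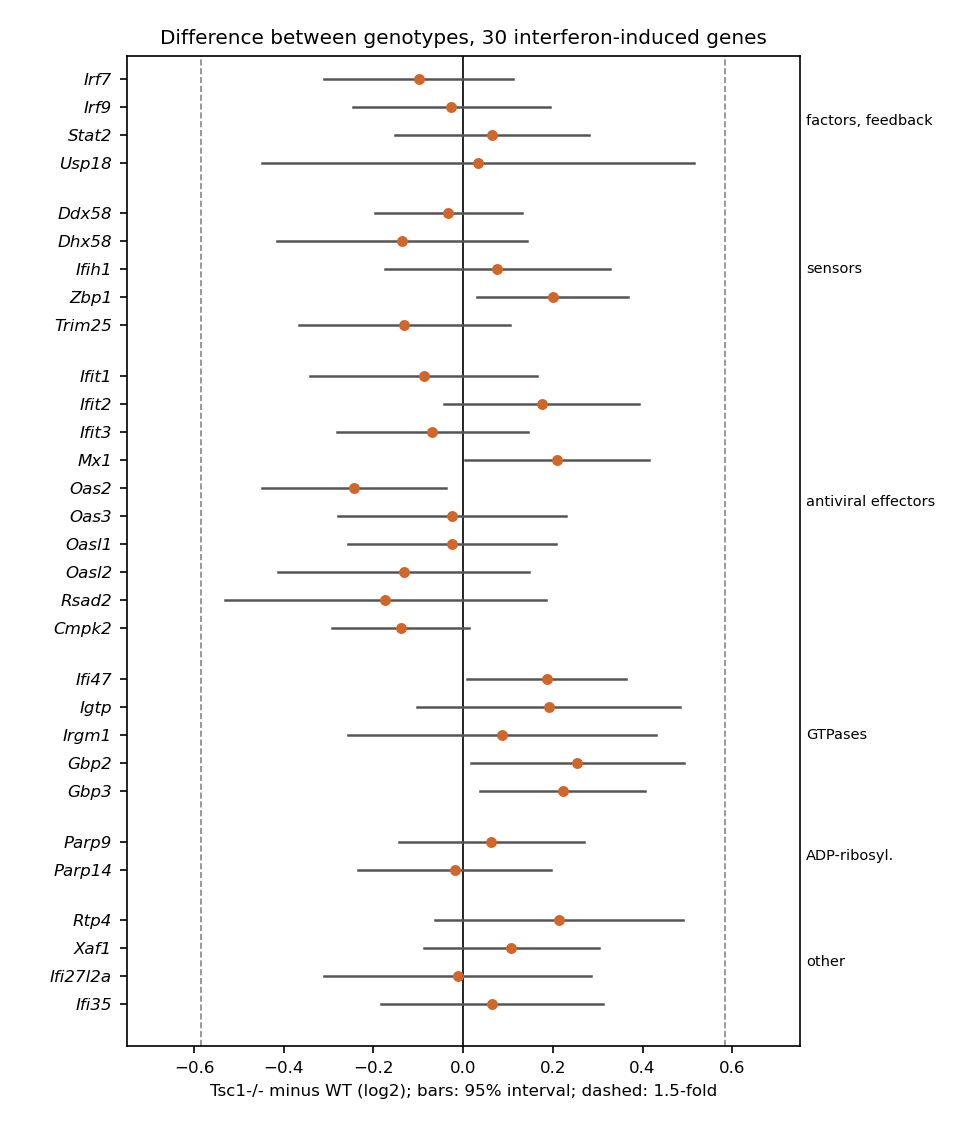
Difference between genotypes (Tsc1-/- minus WT, log2) of the 30 measured interferon-induced genes, grouped by role. Points are limma estimates, bars their 95% intervals and dashed lines a 1.5-fold change; every bar lies between the dashed lines, and Oas2 at -0.24 and Gbp2 at 0.25 are the outermost points.

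The levels themselves describe the response at day 9. Mean log2 levels ran from 5.22 for Oasl2 and 5.31 for Oasl1 to 10.29 for Ifi47 and 10.35 for Zbp1 in Tsc1-/-. A probe set's brightness also depends on its probes, so the genes are not ranked by abundance. Of the 30 members, 27 read above 6.34, the median over all genes, and 2 (Oasl1 and Oasl2) lay below 5.54, the median of 26 probe sets for genes of other organs. That reference list reached 8.55, so no gene is called present from its level alone. Within genotypes the standard deviation (SD) between arrays ran from 0.0561 (Cmpk2) to 0.421 (Usp18), with a median of 0.16 for the members and 0.153 for all genes. The SD was larger in Tsc1-/- than in WT for 25 of the 30 members, and for 52.2% of all genes.

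**Figure D2:**
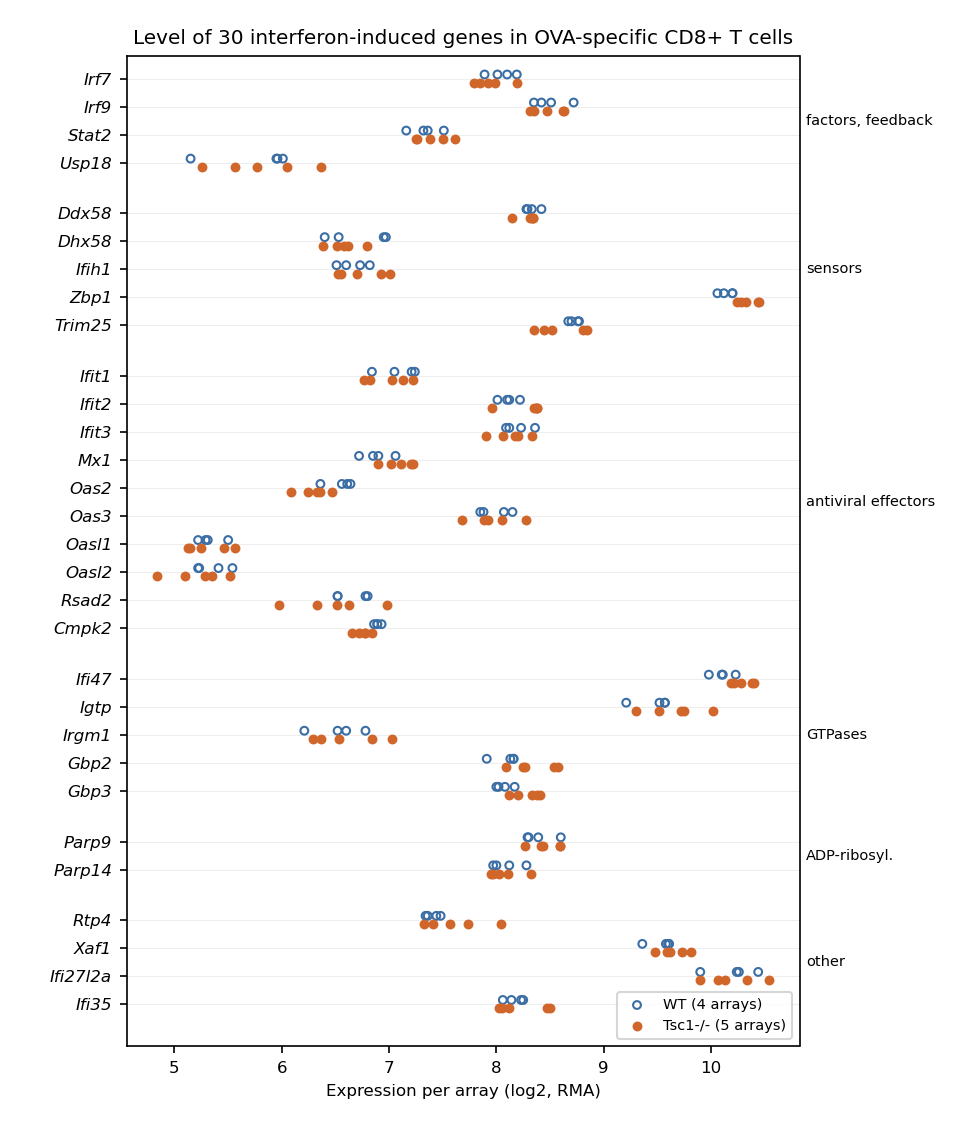
Log2 expression of each of the 30 measured genes on every array, with open circles for the 4 WT and filled circles for the 5 Tsc1-/- arrays, offset vertically. The genotypes overlap in all rows other than Zbp1, where Tsc1-/- is higher, and Cmpk2, where it is lower.

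Among the transcription factors and feedback genes, none of 4 measured genes passed and 2 of 4 differences were positive. Irf7, the factor that amplifies interferon production, read 8.10, 8.19, 8.01 and 7.89 in WT and 7.92, 7.99, 7.85, 7.79 and 8.19 in Tsc1-/-. The genotypes overlapped, and the difference was -0.10 (SE 0.10, adjusted p = 0.65, limma). Stat2, which carries the interferon signal to the nucleus, read 7.32, 7.51, 7.16 and 7.36 in WT and 7.25, 7.5, 7.61, 7.26 and 7.38 in Tsc1-/-. Its arrays overlapped as well, with a difference of 0.06 (SE 0.10, adjusted p = 0.792, limma). Irf9, the DNA-binding partner of Stat2, had a WT mean of 8.50 ± 0.16 (SD, n = 4) and a Tsc1-/- mean of 8.47 ± 0.15 (SD, n = 5), and the means ± SD that follow are over the same arrays. Usp18, a protease that removes Isg15 from proteins and damps the receptor, was 5.77 ± 0.41 and 5.80 ± 0.43, the widest spread of the list. With the mean of 14 macrophage and monocyte markers as a covariate, the Usp18 difference became 0.63 (SE 0.27, adjusted p = 0.51, limma), the largest of any member at equal marker level.

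The sensors of foreign RNA and DNA included the member whose genotypes separated as higher. Zbp1, a sensor of Z-form nucleic acids that can start necroptosis, read 10.20, 10.06, 10.20 and 10.12 in WT and 10.44, 10.28, 10.24, 10.33 and 10.45 in Tsc1-/-. Every Tsc1-/- array was above every WT array, a difference of 0.20 (SE 0.08, 95% interval 0.03 to 0.37) that did not pass (adjusted p = 0.21, limma; exact two-sided permutation p = 0.0159). The exact p is given only for members picked for no overlap, which fixes it at or near its smallest value. It therefore adds no support. Genotypes failed to overlap in 2 of 30 members (6.67%, against 7.96% of all genes), 1 of them higher (5.08% of all genes) and 1 lower (2.88%). The other Zbp1 probe set differed by 0.03. Ddx58, which encodes the RNA helicase RIG-I, was 8.33 ± 0.07 in WT and 8.30 ± 0.08 in Tsc1-/-. Ifih1, which encodes the long double-stranded RNA sensor MDA5, was 6.66 ± 0.14 and 6.74 ± 0.22. Dhx58, the regulator of both helicases known as LGP2, was 6.71 ± 0.29 and 6.58 ± 0.15, and Trim25, the ubiquitin ligase that acts on RIG-I, was 8.72 ± 0.05 and 8.59 ± 0.22. Their differences of -0.03, 0.08, -0.14 and -0.13 were within the spread of the arrays. The dimmer probe sets of Dhx58 differed by 0.24 and 0.006, and those of Ddx58 by 0.11 and -0.02.

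Of the 10 antiviral effectors measured, 8 had a negative difference and none passed, with a median of -0.078. Ifit1, which holds back viral RNA lacking a methylated cap, read 7.24, 7.21, 6.84 and 7.05 in WT and 6.82, 6.77, 7.03, 7.13 and 7.22 in Tsc1-/-, ranges that overlap almost wholly (difference -0.09, SE 0.12). Its relatives Ifit2 and Ifit3 were 8.11 ± 0.09 and 8.20 ± 0.12 in WT against 8.29 ± 0.19 and 8.13 ± 0.16 in Tsc1-/-. The 3 Ifit genes therefore did not share a direction. Ifit3 has a near-identical neighbour, Ifit3b, whose transcripts its probes may also bind.

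The oligoadenylate synthetase family makes the second messenger that activates RNase L. Oas2 had the most negative difference of the list, with 6.64, 6.61, 6.56 and 6.36 in WT and 6.47, 6.36, 6.24, 6.33 and 6.09 in Tsc1-/-. The 3 highest arrays were WT, but WT replicate 4 lay among the Tsc1-/- arrays, and the difference of -0.24 (SE 0.09, 95% interval -0.45 to -0.04) did not pass (adjusted p = 0.21, limma). At equal macrophage marker level the Oas2 difference was -0.053 (SE 0.13). Oas3 was 7.99 ± 0.15 in WT and 7.96 ± 0.22 in Tsc1-/-. The related genes Oasl1 and Oasl2, of which Oasl2 keeps the enzyme activity, were both dim, at 5.33 ± 0.12 and 5.35 ± 0.15 in WT and 5.31 ± 0.20 and 5.22 ± 0.26 in Tsc1-/-.

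Rsad2 (viperin) turns CTP into a chain terminator of viral RNA, and its neighbour Cmpk2 supplies the substrate. Rsad2 read 6.52, 6.80, 6.78 and 6.52 in WT and 6.33, 6.98, 5.97, 6.63 and 6.51 in Tsc1-/-, where the lowest and the highest value of all 9 arrays both occurred (difference -0.17, SE 0.16). The Rsad2 difference was -0.046 without Tsc1-/- replicate 3, -0.30 without Tsc1-/- replicate 2 and -0.022 (SE 0.26) at equal macrophage marker level. Cmpk2 read 6.89, 6.93, 6.86 and 6.89 in WT and 6.84, 6.72, 6.78, 6.78 and 6.65 in Tsc1-/-. Each Tsc1-/- array was below each WT array, by a small margin (difference -0.14, SE 0.07, adjusted p = 0.337, limma; exact two-sided permutation p = 0.0159). As for Zbp1, this exact p follows from the lack of overlap. The second, dimmer Cmpk2 probe set differed by 0.17, and the mean of both by 0.015. Mx1, a GTPase that traps viral nucleocapsids and is defective in most laboratory strains, C57BL/6 included, was 6.88 ± 0.14 in WT and 7.09 ± 0.13 in Tsc1-/- (difference 0.21, adjusted p = 0.281, limma). At equal macrophage marker level the Mx1 difference was -0.011 (SE 0.13).

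The 5 GTPases that respond strongly to interferon gamma as well, and guard against bacteria and parasites within vacuoles, all had a positive difference (5 of 5, against 48.2% of all genes), with a median of 0.19. None passed the threshold, and 3 of the 5 had an unadjusted p under 0.05. WT replicate 2 was the lowest of the 9 arrays for all 5, and Tsc1-/- replicate 1 the highest for 3; the median difference was 0.15 without the former and 0.16 without the latter. Gbp2, a guanylate-binding protein, read 8.13, 7.91, 8.16 and 8.16 in WT and 8.54, 8.27, 8.25, 8.09 and 8.57 in Tsc1-/-. Only Tsc1-/- replicate 4 fell within the WT range, and the difference was 0.25 (SE 0.11, 95% interval 0.02 to 0.49, adjusted p = 0.257, limma). A second Gbp2 probe set, of a type that can bind related transcripts, differed by 0.43. Gbp3 read 8.08, 8.0, 8.02 and 8.17 in WT and 8.33, 8.38, 8.12, 8.20 and 8.41 in Tsc1-/-, again with 1 Tsc1-/- array inside the WT range (difference 0.22, SE 0.08, adjusted p = 0.201, limma). This was the smallest adjusted p of the 30 genes. Related GTPases outside the 30 genes were not all alike. Gbp7 (0.15), Irgm2 (0.17), Tgtp1 (0.25) and Iigp1 (0.41) differed positively, while Gbp4 (0.003) and Gbp8 (-0.0004) were level.

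The immunity-related GTPases were Ifi47, at 10.11 ± 0.10 in WT and 10.29 ± 0.09 in Tsc1-/-, Igtp, at 9.47 ± 0.17 and 9.66 ± 0.27, and Irgm1, a regulator of the others, at 6.52 ± 0.24 and 6.61 ± 0.32. Not every setting tried could change the sign of the GTPase differences. A threshold of 0.1, the variance trend with robust estimation and leaving out dim genes keep them as they are. The replicate block repeats those without Tsc1-/- replicate 5. Irgm1 turned negative without WT replicate 2 (-0.019) or without Tsc1-/- replicate 1 (-0.018), while all 5 were positive in the other 18 of 20 settings tried, other normalizations included. The gene of their inducer, Ifng, was 10.96 ± 0.25 in WT and 11.17 ± 0.21 in Tsc1-/- (difference 0.21, 95% interval -0.08 to 0.50, adjusted p = 0.456, limma). The response element core was in the window of 4 of these 5 genes.

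Parp9 and Parp14 belong to the ADP-ribosyltransferases, which modify proteins in the antiviral response. Parp9 was 8.40 ± 0.14 in WT and 8.46 ± 0.13 in Tsc1-/-, and Parp14 was 8.09 ± 0.14 and 8.07 ± 0.15. Of the remaining induced genes, Rtp4 read 7.48, 7.36, 7.34 and 7.44 in WT and 7.33, 7.41, 7.57, 7.74 and 8.04 in Tsc1-/-. Tsc1-/- replicates 3, 4 and 5 were above all WT arrays and replicate 1 below them (difference 0.21, SE 0.13, adjusted p = 0.418, limma). The Rtp4 difference was 0.11 without Tsc1-/- replicate 5 and -0.0086 (SE 0.19) at equal macrophage marker level. Xaf1, a promoter of apoptosis, was 9.54 ± 0.12 in WT and 9.65 ± 0.13 in Tsc1-/-. Ifi27l2a, of a family of small membrane proteins, was 10.21 ± 0.23 and 10.20 ± 0.25, and Ifi35 was 8.17 ± 0.09 and 8.23 ± 0.23. For 5 of the 10 members with more than 1 probe set, the direction was the same in each.

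The differences were also set beside promoter content. The 11 measured members with the response element core in their window had a median difference of 0.065, from -0.17 to 0.25, and 6 of them were positive. The 10 measured members with a window that lacked it had a median of -0.025, from -0.14 to 0.19, with 4 positive. The ranges overlap widely, and no test was made.

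Across arrays, the members did not vary as 1 block by genotype. Each gene's deviation from its own mean over the 9 arrays had a median, over the 30 members, of 0.00084, 0.000049, -0.054 and -0.024 in WT replicates 1 to 4. In Tsc1-/- replicates 1 to 5 it was 0.01, -0.071, -0.06, 0.02 and 0.17. The highest and the 2 lowest medians were thus all in Tsc1-/-, and the WT medians lay between them. In Tsc1-/- replicate 5, 24 of 30 members were above their own mean (80.0%, against 53.5% of all genes), and 9 had their highest value of all arrays there (30%, against 13.5%). These 9 were Ifih1, Zbp1, Mx1, Oas3, Gbp2, Gbp3, Rtp4, Ifi27l2a and Ifi35. In Tsc1-/- replicate 3, 9 members had their lowest value (30%, against 11.8% of all genes), among them Irf9, Dhx58, Trim25, Rsad2 and Parp14. Without Tsc1-/- replicate 5 the median difference of the members was -0.0062, the largest difference 0.20, and 0 members had an unadjusted p under 0.05.

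**Figure D3:**
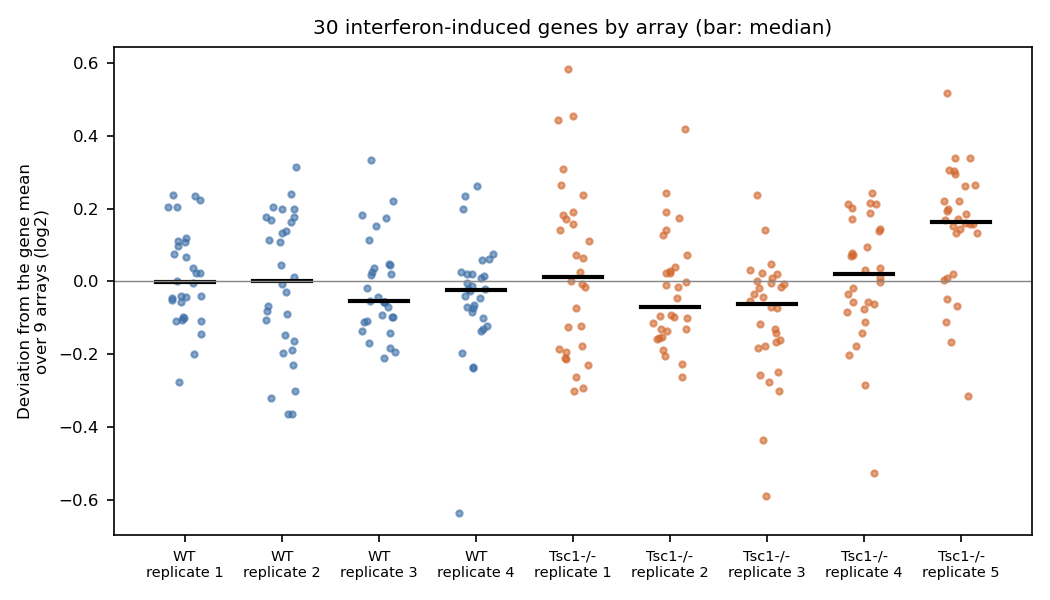
Deviation of each of the 30 measured genes from its mean over the 9 arrays (log2), by array, with WT in blue, Tsc1-/- in orange and a bar at the median. The median is highest in Tsc1-/- replicate 5 (0.17) and lowest in Tsc1-/- replicate 2 (-0.071), with the 4 WT medians in between.

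The rest of the pathway was read from lists of ligands, receptors and brakes, sensing genes and other induced genes. No gene of these lists passed: 0 of 9 ligands, 0 of 21 receptor, kinase and brake genes, 0 of 15 sensing genes and 0 of 67 other induced genes (limma). At an unadjusted p under 0.05 there were 1, 2, 6 and 15 of them. These were 11.1%, 9.52%, 40% and 22.4% of the lists, against 17.2% of all genes. The median differences were -0.061, -0.059, 0.031 and 0.025. The receptor genes were level, with Ifnar1 at 8.42 ± 0.04 in WT and 8.40 ± 0.06 in Tsc1-/- and Ifnar2 at 9.98 ± 0.09 and 9.93 ± 0.13. The kinase genes Jak1 and Tyk2 differed by 0.11 and 0.12. Ifnb1, the interferon beta gene, was dim, at 5.06 ± 0.16 in WT and 5.00 ± 0.16 in Tsc1-/-. The ligands with the smallest p were Ifna1 (-0.22, adjusted p = 0.189, limma) and Ifna6 (0.20, adjusted p = 0.368, limma), of a family of similar sequences that probes may not tell apart. Among receptors and brakes these were Ifngr2, a chain of the interferon gamma receptor (-0.25, adjusted p = 0.218, limma), and the corepressor Irf2bp2 (-0.21, adjusted p = 0.247, limma).

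Myd88, the adaptor of most Toll-like receptors, came nearest to the threshold. It read 7.88, 7.95, 7.93 and 7.97 in WT and 8.31, 8.09, 8.24, 8.27 and 8.34 in Tsc1-/-, with no overlap (difference 0.32, SE 0.08, adjusted p = 0.0586, limma). It passed in 6 of the 20 other settings, 1 of which was a threshold of 0.1, among them median centring (difference 0.35, adjusted p = 0.0399) and dim genes left out (adjusted p = 0.0234), each in limma. Cgas, the sensor of cytosolic DNA, was 6.80 ± 0.13 in WT and 7.15 ± 0.17 in Tsc1-/-, also with no overlap (difference 0.35, adjusted p = 0.104, limma). The mean of the Cgas probe sets differed by 0.42 and passed (adjusted p = 0.0338, limma). Among the other induced genes, Ifit1bl1, a relative of Ifit1, was 9.55 ± 0.27 and 10.02 ± 0.14 (difference 0.47, adjusted p = 0.0751, limma). Slfn5, of the Schlafen family, was 6.68 ± 0.24 and 6.27 ± 0.10 (difference -0.42, adjusted p = 0.0774, limma), and the mean of its probe sets differed by -0.15 (adjusted p = 0.364, limma). The outermost of them, Ifitm3, which blocks viral entry, was chosen after its values were seen and differed by -0.88 (adjusted p = 0.173, limma) with an SD of 0.86 in WT.

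**Figure D4:**
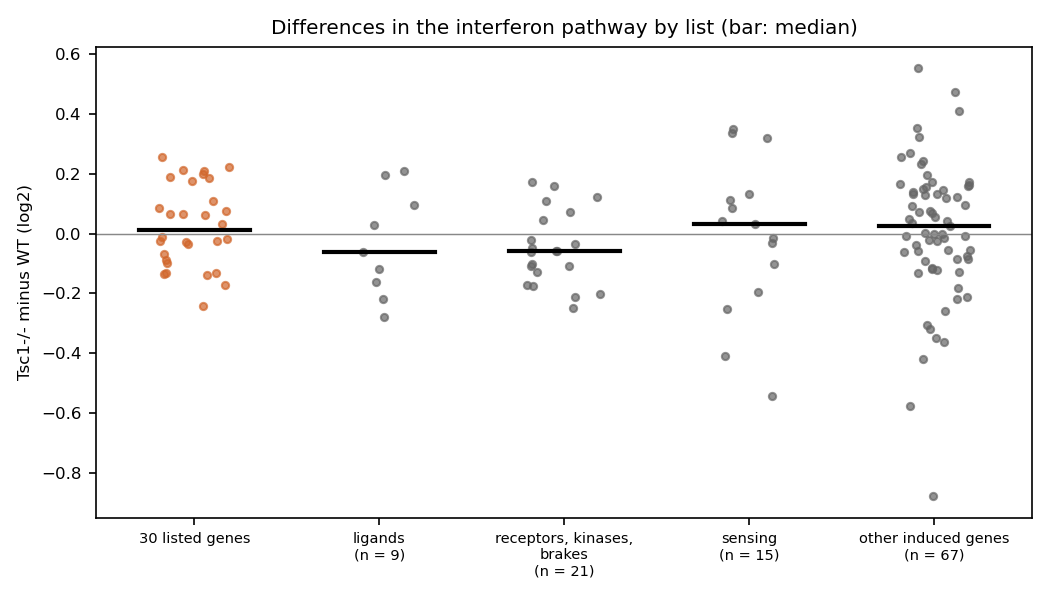
Difference between genotypes (Tsc1-/- minus WT, log2) for the 30 listed genes and for the 4 pathway lists, 1 point per gene and a bar at the median. The medians lie between -0.061 and 0.031, and the listed genes stay between -0.24 and 0.25, while the other induced genes reach -0.88 and 0.55.

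Markers of several other spleen cells had mostly negative differences, though not those of NK cells (2 of 4 positive) or CD4 T cells (2 of 4), and 3 of 5 erythroid and 5 of 6 platelet markers were negative. Of the macrophage and monocyte markers 13 of 14 had a negative difference, and their mean level ran from 5.96 to 6.54 in WT and from 5.74 to 6.08 in Tsc1-/-. The plasmacytoid dendritic cell markers, of cells that make much type I interferon, were negative in 7 of 8, with means of 6.75 to 7.14 and 6.74 to 6.91. B cell markers were negative in 9 of 10, with means of 5.74 to 6.31 and 5.50 to 5.90. Conventional dendritic cell markers were negative in 9 of 9, with means of 7.47 to 8.01 and 7.15 to 7.69, and neutrophil markers in 8 of 8, with means of 6.84 to 7.72 and 5.91 to 8.05. None of the markers in any of these lists passed the threshold. The 13 CD8 T cell genes had means of 11.28 to 11.33 in WT and 11.4 to 11.5 in Tsc1-/-, with 1 gene called higher, Gzmb, which encodes granzyme B (difference 0.58, adjusted p = 0.0339, limma). The part of markers other than the macrophage list in the results was not tested. The macrophage marker means of WT replicates 1 to 3 (6.41, 6.54 and 6.45) lay above every Tsc1-/- array. WT replicate 4 alone (5.96) lay within the Tsc1-/- range. Marker level and genotype are therefore hard to separate, and the lack of calls in a fit with both says little. At equal macrophage marker level the median difference of the members was -0.0025, with 0 of 30 called, and no gene on the arrays was called in that fit. Among members, Zbp1 then differed by 0.19 (SE 0.12), Gbp2 by 0.22 (SE 0.18), Gbp3 by 0.16 (SE 0.13) and Cmpk2 by -0.12 (SE 0.11). Irf9 went from -0.03 to -0.30 (SE 0.12). Outside the members, Slfn5 then differed by -0.16, Myd88 by 0.25, Ifit1bl1 by 0.58 and Cgas by 0.39. Ifitm3 turned from -0.88 to 0.30 and its relative Ifitm2, also chosen after its values were seen, from -0.58 to 0.55. In sorted bulk samples, fewer cells of a type and less RNA per cell cannot be told apart.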

How the data were processed

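RNA from 9 sorted samples was measured on 1 expression array each, from 12 ng of total RNA per sample, per the labels' protocols. The values the authors deposited are log2 levels of probe sets. The submitters' processing notes name RMA and Partek 6.5, without options or filters. RMA adjusts arrays to a common distribution, so a shift shared by most genes may not show; the medians of all 5 Tsc1-/- arrays (5.97 to 6.02) lay below those of the 4 WT arrays (6.03 to 6.05).

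Of 45037 probe sets, 28898 had 1 gene in the platform annotation and 551 had several, which were not used; the other probe sets are unnamed here. Symbols were updated by Entrez identifier (28689 matched), and the brightest probe set per gene left 17097 genes. The 4 WT and 5 Tsc1-/- samples were compared with limma 3.58.1 in R 4.3.3 (lmFit, eBayes, genotype only, two-sided, Benjamini-Hochberg over all genes, threshold 0.05), which was tested on simulated data. Differences are Tsc1-/- minus WT, SE is limma's moderated standard error, and single members whose genotypes did not overlap (and Tsc1) also had an exact permutation test over 126 splits. Values in every array are given for members whose genotypes did not overlap, the 3 most positive and 3 most negative, and Irf7, Stat2 and Ifit1, and from each pathway list the 2 genes with the smallest p are named. The first 4 of these members, in list order, with the response element core gave the promoters shown. The members, lists and rules were chosen with earlier results of these data known. The number of arrays limits the precision. Figures were drawn with matplotlib 3.10.9 in Python 3.11.15.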

Additional observations from a re-analysis of the deposited data

Results flagged for a closer look

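In 7 of 80 groups of samples checked, 1 array lay far from the others of its genotype; chance gives about 1 in 20. WT replicate 4 was the lowest for Usp18 (5.15, next 5.95), for Xaf1 (9.36, next 9.58) and for Irf2bp2 (9.60, next 9.91). WT replicate 2 was the lowest for Igtp (9.21, next 9.52) and for Gbp2 (7.91, next 8.13). In Tsc1-/-, replicate 2 was the lowest for Ddx58 (8.15, next 8.31) and replicate 3 for Ifit2 (7.96, next 8.35).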

How the results depend on the processing

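No member passed in any of the 20 other settings, and the smallest adjusted p of a member was 0.0805 (limma), without WT replicate 4 and Tsc1-/- replicate 1 together. The median difference of the members ran from -0.0062 to 0.063 over these settings and was negative in 4 of them; 0 to 8 members had an unadjusted p under 0.05. With the replicate number as a block, which leaves Tsc1-/- replicate 5 without a partner and so drops it from the contrast, 0 members and 0 of all genes were called and the members' median was -0.0062. Same-numbered samples deviated together with correlations of -0.098, 0.0933, -0.071 and 0.0247, so the numbers were not taken as pairs. Counts over all genes, as background, were 166 higher and 53 lower as reported, 43 and 34 after quantile normalization, 338 and 63 after median centring, 543 and 151 with dim genes left out, 509 and 171 with a variance trend and robust estimation, 529 and 209 at a threshold of 0.1, and 0 and 0 with the marker covariate. Leaving out 1 array gave between 1 and 1 (without WT replicate 1, or without Tsc1-/- replicate 5) and 297 and 159 (without WT replicate 4). Outside the members, Slfn5 passed in 5 settings and Ifit1bl1 in 3, both counts with a threshold of 0.1 as 1 of them, and Cgas passed in 1, with the same direction in each. The setting with probe sets not joined was left out of these counts for genes with several probe sets, Slfn5 and Cgas included. In that setting 1 of the 24 probe sets of sensing genes passed (adjusted p = 0.0359, limma), against 0.827% of all probe sets. Among the 67 other induced genes, 5 passed with a variance trend and robust estimation (3.98% of all genes) and 1 with array weights (2.72% of all genes). With dim genes left out, 5 of the 59 kept passed, against 7.89% of all genes kept. Without WT replicate 4, 2 of the other induced genes passed, against 2.67% of all genes (smallest adjusted p = 0.00517, limma). The most negative difference of that list was then -1.30. Without WT replicate 4 and Tsc1-/- replicate 1 together, 2 passed, against 2.3% of all genes (smallest adjusted p = 0.00878, limma), with -1.33 the most negative. Leaving out single arrays moved the small differences of Irf7, Stat2 and Ifit1 by over 1.5 times, from -0.16 to -0.052, 0.007 to 0.12 and -0.17 to -0.033. The depth of an array is its signal over background, which is not given here, so small changes of the dim genes Oasl1, Oasl2 and Usp18 are the least certain.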
